A study of Mus musculus with 12 samples.

Results

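Liver RNA of 3 RelaΔhepStat3Δhep mice was compared with that of 3 wild-type mice after both had received 2% dextran sodium sulfate (DSS) in their drinking water for 6 days. They are 6 of the 12 samples of the series, and the other 6 are untreated mice of the same genotypes, given plain water, whose levels serve as a reference. The members were chosen by their sample labels (Rela and Stat3 knockout, or wild type, with DSS as the treatment), and the genes described are those on autosomes, of which 13853 of 26547 had enough counts to be tested. All mice were on the C57BL/6 background. The knockout mice carried Cre recombinase driven by the albumin promoter and lost Rela and Stat3 in hepatocytes, whereas the wild-type mice were Cre-negative littermates with floxed Rela and Stat3. Kupffer, endothelial, stellate and immune cells of the knockout liver therefore still held both genes. The question the comparison addresses is how the hepatocyte factors shape the response of the liver to an inflamed colon.

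Hepatocytes secrete most plasma proteins, and in inflammation IL-6 acting through STAT3, together with IL-1 and TNF acting through the NF-κB subunit RelA, turns up the acute-phase genes, among them fibrinogen, haptoglobin, hemopexin and serum amyloid A. The same cells synthesize bile acids from cholesterol and clear drugs and hormones with cytochrome P450, sulfotransferase and flavin monooxygenase enzymes. Many of these enzymes differ between male and female mouse liver. DSS injures the colon epithelium, so bacterial products and cytokines reach the liver through the portal vein.

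Levels are given as TMM-normalized counts per unit of library size (CPM), which compare one gene between samples and not one gene with another. Differences are log2 fold changes of knockout over wild type after DSS with their standard error (SE), and a gene was called when its adjusted p in edgeR was under 0.05. The libraries held between 65879529 and 82850098 estimated counts. Xist, transcribed from the inactive X chromosome, stood at 1283, 903 and 919 CPM in the knockout mice given DSS and at 11.1, 0.191 and 11.9 CPM in the wild-type mice given DSS. The summed Y-linked transcripts Ddx3y, Uty, Kdm5d and Eif2s3y were at 0.0571, 0.120 and 0.0424 CPM in the knockout mice and at 206, 228 and 205 CPM in the wild-type mice. The knockout group thus had the transcripts of females and the wild-type group those of males, and genotype and sex cannot be told apart in any comparison of the mice given DSS below. The third untreated wild-type library held both, with 1143 CPM of Xist and 30.1 CPM of the Y-linked sum, while the other 5 untreated libraries had more Y-linked transcripts than Xist.

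Neither targeted gene passed the test. Rela was at 41.1, 39.8 and 55.5 CPM in wild-type and at 39.5, 62.3 and 46.4 CPM in knockout mice, and the groups overlapped (log2 fold change 0.12 ± 0.19 SE, adjusted p = 0.827). Stat3 was at 63.2, 330 and 307 CPM in wild-type and at 43.0, 58.0 and 74.8 CPM in knockout mice (log2 fold change -1.99 ± 0.56 SE, adjusted p = 0.175), and the first wild-type mouse lay within the knockout range. In untreated wild-type and knockout mice Rela ran from 41.2 to 54.5 and from 42.8 to 51.4 CPM, and Stat3 from 45.7 to 138 and from 45.9 to 49.7 CPM. Counts per gene do not resolve the deleted exons, so these levels do not check the genotype labels. The wild-type mice given DSS differed widely in their acute-phase genes: the list's level, the median of log2(CPM + 0.5) relative to the mean of the 6 libraries, was -0.92, 2.27 and 0.67 in mice 1 to 3, against -0.85, -0.76 and -0.49 in the knockout mice, so calls in the lists are also given without each of them where they changed. Hepatocyte markers summed to between 101644 and 158660 CPM in wild-type and between 145937 and 186513 CPM in knockout mice, and their median log2 fold change was -0.02. Fewer cells of a type and less RNA per cell cannot be told apart in such bulk samples.

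Of the 13853 autosomal genes tested, 47 were called between the DSS-treated genotypes. They comprised 29 genes higher in knockout liver (0.209% of those tested) and 18 genes lower (0.130%). An unadjusted p under 0.05 was reached by 8.14% of genes on the higher and 7.66% on the lower side, and the 3 knockout mice lay wholly above the 3 wild-type mice for 9.75% and wholly below for 7.75%. DESeq2 called many more, 1.61% higher and 2.18% lower, and all 47 genes were among its calls. These shares over all autosomal genes are the background for the list counts below. The groups did not overlap for any of the 47. Between the untreated genotypes 2 of the 47 were called, and for 28 of them the untreated difference had the opposite sign. When sex, judged by whether Xist exceeded the Y-linked sum, was added to the model, 0 genes were called higher and 1, Nr1d1, was called lower. In that model the sex term is estimated from 1 library, the third untreated wild-type one, since every other group is uniform. That library also held Y-linked transcripts, so the values given below with sex as a covariate do not separate sex from genotype. All 47 log2 fold changes kept their sign in that model and 37 stayed within 1.5 times their size, while the median SE of the 47 rose from 0.21 to 0.38. Among the genes called higher, the third untreated wild-type library, the one with high Xist, lay above both other untreated wild-type libraries for 13 of 29, against 29.2% of all autosomal genes. Among the genes called lower it lay below both for 12 of 18, against 43.1% of all.

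**Figure D1:**
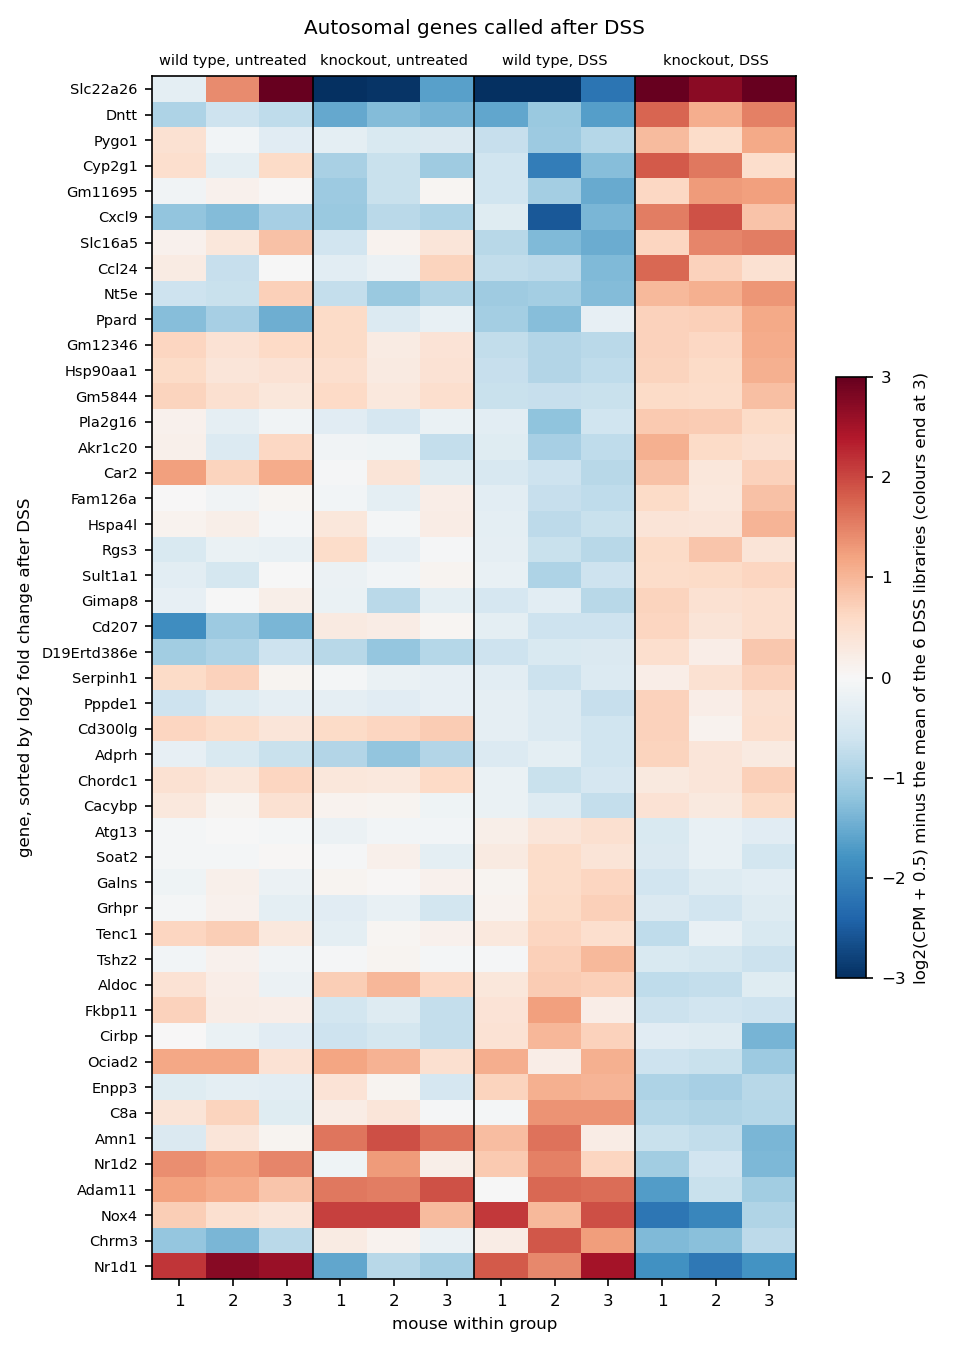
Levels of the 47 called autosomal genes in all 12 libraries, as log2(CPM + 0.5) minus the mean of the 6 DSS libraries, with red for higher and blue for lower. In every row the 3 knockout mice given DSS, in the last columns, lie wholly above or wholly below the 3 wild-type mice given DSS.

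The difference with the smallest p among the lower genes was that of Nr1d1, which encodes REV-ERBα, a repressor of the circadian clock. It was at 57.5, 43.3 and 91.3 CPM in wild-type and at 4.07, 3.15 and 4.18 CPM in knockout mice (log2 fold change -4.08 ± 0.31 SE, adjusted p = 0.00016). Its level was also lower in untreated knockout than in untreated wild-type liver, by a log2 fold change of -3.72. Nr1d2, its paralog, was called too, with 74.4, 125 and 68.1 CPM against 20.8, 28.7 and 16.8 CPM (log2 fold change -2.01 ± 0.36 SE, adjusted p = 0.0481), but kept the call in 3 of the 12 fits that left out 1 library and lost it in limma-voom. Of 17 clock genes tested, these 2 were called and 0 were called higher. In 5 of the 17 the knockout values lay wholly below wild type, against 7.75% of all autosomal genes, and in 3 wholly above, against 9.75%. DESeq2 called 1 higher and 5 lower, and edgeR called 4, 1 and 1 lower without wild-type mouse 1, 2 or 3. The median over the list was -0.49, and without the second wild-type mouse it was 0.17. Dbp and Cry1 are given as examples chosen after their values were seen. Dbp, a transcription factor of the clock's output, was at 1.30, 10.4 and 2.10 CPM against 0.185, 0.335 and 0.367 CPM, and the clock repressor Cry1 was at 16.5, 5.87 and 16.2 CPM against 38.3, 24.3 and 42.1 CPM. Neither passed the test (adjusted p = 0.114 and 0.112). The hour of collection is not given in the sources used here.

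Enpp3, an ectonucleotide pyrophosphatase, was at 71.6, 94.4 and 91.2 CPM in wild-type and at 23.3, 22.4 and 25.0 CPM in knockout mice (log2 fold change -1.86 ± 0.20 SE, adjusted p = 0.00105). Nox4, a hydrogen peroxide-producing NADPH oxidase, fell further, from 48.4, 21.5 and 42.9 CPM to 2.03, 2.39 and 5.54 CPM (log2 fold change -3.50 ± 0.47 SE, adjusted p = 0.0164). Chrm3, the M3 muscarinic receptor, was scarce in every mouse, with at most 5.11 CPM in wild-type liver and at most 0.396 CPM in knockout liver (log2 fold change -3.87 ± 0.63 SE). Adam11, Amn1, Ociad2, the glycolytic aldolase Aldoc, the cold-inducible RNA-binding protein gene Cirbp and Fkbp11, a prolyl isomerase of the secretory pathway, were also called lower, with log2 fold changes between -2.85 and -1.29. With 1 library left out Cirbp kept its call in 1, Adam11 in 3, Amn1 in 4, Fkbp11 and Ociad2 in 5, Chrm3 in 8, and Aldoc and Nox4 in 9 of 12 fits. Adam11, Amn1, Fkbp11 and Chrm3 lost it in limma-voom. All of these genes, Nox4 and Chrm3 included, lost it on the 6 DSS libraries alone. Apart from C8a, described with the complement genes, the other lower calls were Tshz2, Tenc1, Grhpr, Galns, Soat2 and Atg13. They lie outside the naming rule, and their log2 fold changes ran from -1.18 to -0.69. Their calls were kept in 2 (Galns, Grhpr and Tshz2) to 5 (Soat2) of the 12 fits that left out 1 library.

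Among the genes called higher the largest difference was that of Slc22a26, a member of a family of organic anion transporters, at 2.78, 1.67 and 5.75 CPM in wild-type and 277, 184 and 227 CPM in knockout mice (log2 fold change 6.07 ± 1.00 SE, adjusted p = 0.0481). It kept the call in 2 of the 12 fits that left out 1 library and lost it in limma-voom. It belongs to the list of genes known to be higher in female liver. Dntt, the template-independent DNA polymerase of lymphocyte precursors, was at 0.601, 1.00 and 0.532 CPM against 10.4, 6.39 and 8.70 CPM (log2 fold change 3.57 ± 0.29 SE, adjusted p = 0.000186). Nt5e, the ectoenzyme CD73 that makes adenosine from AMP, was at 42.4, 44.0 and 36.0 CPM against 174, 188 and 225 CPM (log2 fold change 2.26 ± 0.32 SE). With sex as a covariate its log2 fold change was 0.91 and that of Dntt was 3.58. The monocarboxylate transporter Slc16a5, the Wnt cofactor Pygo1, the cytochrome P450 Cyp2g1, the nuclear receptor Ppard, the phospholipase Pla2g16 and the steroid reductase Akr1c20 were called higher as well, with log2 fold changes between 1.42 and 3.15. With 1 library left out Ppard kept its call in 2, Akr1c20 in 3, Cyp2g1 in 4, Nt5e and Pygo1 in 9, Pla2g16 in 10 and Slc16a5 in 11 of 12 fits. Ppard, Akr1c20 and Cyp2g1 lost it in limma-voom and on the 6 DSS libraries alone, Pygo1 in limma-voom and Pla2g16 on those 6 libraries. Outside the naming rule and the chaperones described later, Car2, Fam126a, Rgs3, Gimap8, Cd207, D19Ertd386e, Pppde1, Cd300lg and Adprh were called with log2 fold changes from 0.92 to 1.38, and the noncoding Gm11695 with 2.93. Their calls were kept in 2 (Adprh) to 8 (Fam126a) of the 12 fits that left out 1 library and were lost on the 6 DSS libraries alone.

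Averaged over the mice, the acute-phase genes were lower in knockout liver, but none of them was called and the list levels of the groups overlapped. Wild-type mouse 1 had a list level of -0.92, below the knockout mice at -0.85, -0.76 and -0.49. Wild-type mice 2 and 3, at 2.27 and 0.67, lay above the knockout mice. All 20 members with enough counts had a negative log2 fold change, with a median of -1.94 against 0.01 over all autosomal genes. An unadjusted p under 0.05 was reached by 16 of them, against 7.66% of all autosomal genes on the lower side. DESeq2 called 10 of the 20 lower, against 2.18%. The median for the untreated genotypes was -0.23. Of the 29 genes listed 9, Saa1 among them, had no row and were not analysed here.

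The genes of fibrinogen, the clotting protein made of 3 chains, were among those whose groups did not overlap. Fga was at 6554, 24597 and 14311 CPM in wild-type and at 3027, 3514 and 5194 CPM in knockout mice (log2 fold change -1.95 ± 0.40 SE, adjusted p = 0.0606). Fgb and Fgg had knockout values wholly below wild type too, with log2 fold changes of -1.56 ± 0.38 (SE) and -1.63 ± 0.42 (SE) and adjusted p of 0.112 and 0.118. The last gene without overlap was Lrg1, a secreted leucine-rich glycoprotein, at 123, 2354 and 1168 CPM against 53.2, 89.3 and 108 CPM (log2 fold change -3.86 ± 0.87 SE, adjusted p = 0.110).

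In the other members the groups overlapped. For all 20 the range on the log2 scale was wider among the wild-type than among the knockout mice, and the second wild-type mouse was the highest of the 6. The first wild-type mouse was the lowest wild-type mouse for 18 of the 20. The heme carrier Hpx was at 4342, 63830 and 12413 CPM in wild-type and at 4361, 5963 and 5196 CPM in knockout mice (log2 fold change -2.38 ± 0.72 SE, adjusted p = 0.192). The hemoglobin carrier Hp was at 1653, 35610 and 8323 CPM against 1236, 1853 and 1702 CPM (log2 fold change -3.25 ± 0.83 SE, adjusted p = 0.131). Saa2, a serum amyloid A, spanned 10.1 to 23330 CPM among the wild-type mice and 0.984 to 73.1 CPM among the knockout mice. For these 3 genes the first wild-type mouse lay within the knockout range or next to it. The calls depended on which wild-type mouse was in the fit. Without mouse 1, 2 or 3 the number called lower was 12, 0 and 0 of 20, and the list median was -2.37, -0.71 and -2.05. The share of autosomal genes called higher in those fits was 0.748%, 0.106% and 0.0352%, and called lower 1.79%, 0.113% and 0.0282%. These counts were added after seeing the data, and mouse 1 is the wild-type mouse nearest the knockout mice, so the count without it is a description only. Neutrophil markers were highest in the second mouse too: all 10 summed to 10.4, 121 and 5.22 CPM in the wild-type and to 31.7, 12.3 and 16.5 CPM in the knockout mice, none was at 0 in all 6, and their part in the acute-phase values was not tested.

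**Figure D2:**
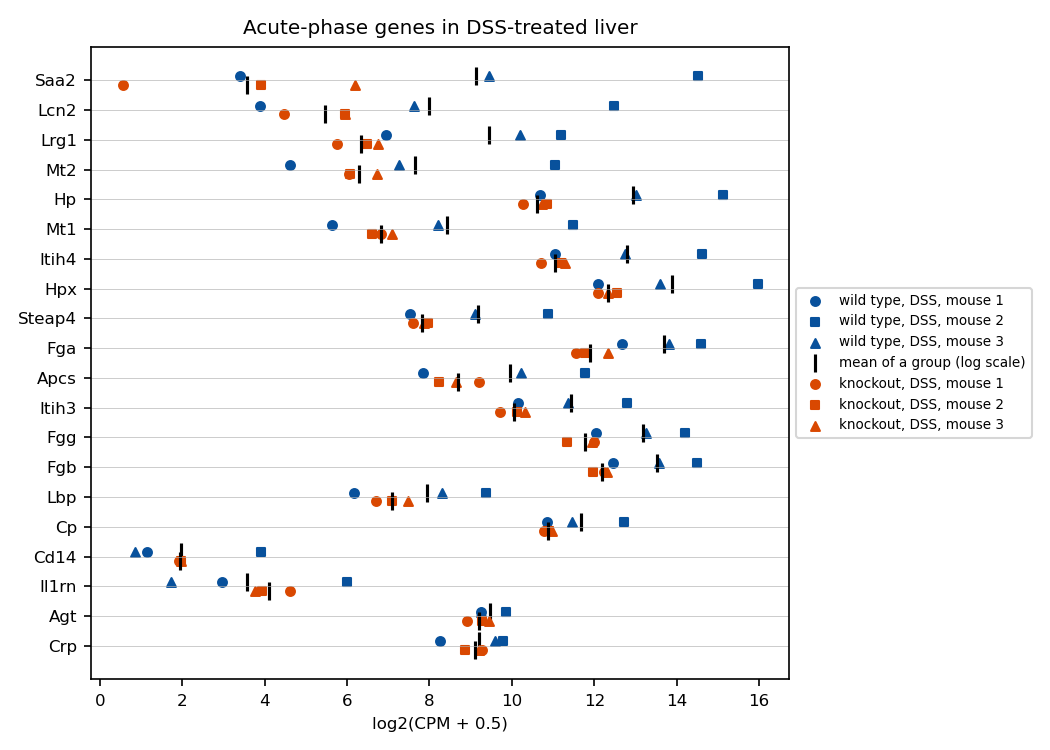
Levels of the 20 tested acute-phase genes in the 6 DSS libraries, as log2(CPM + 0.5), with wild-type mice in blue, knockout mice in orange and the mean of each group as a bar. The wild-type mice spread over a wider range than the knockout mice, and for Fga, Fgb, Fgg and Lrg1 the 2 groups are fully separate.

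The promoter windows of 3 acute-phase genes are shown because they hold the letters of a STAT element. A window runs from 250 bases before to 50 bases after the first start that RefSeq lists for a gene (GRCm38.p6), and 17 of the 20 members had one. Capitals mark matches to TTCNNNGAA, a palindrome that reads the same on both strands and that STAT5 also binds. The windows lie at chr3:83025903-83026202 (+ strand), chr3:83049814-83050113 (- strand) and chr14:30886226-30886525 (+ strand), and the match starts 234, 162 and 51 bases before the start.
Fga: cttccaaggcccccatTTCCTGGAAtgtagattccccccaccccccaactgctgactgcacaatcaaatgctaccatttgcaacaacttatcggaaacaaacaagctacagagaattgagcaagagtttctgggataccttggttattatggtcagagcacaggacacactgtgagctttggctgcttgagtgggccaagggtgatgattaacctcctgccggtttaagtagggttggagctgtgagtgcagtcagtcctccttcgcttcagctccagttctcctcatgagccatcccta
Fgb: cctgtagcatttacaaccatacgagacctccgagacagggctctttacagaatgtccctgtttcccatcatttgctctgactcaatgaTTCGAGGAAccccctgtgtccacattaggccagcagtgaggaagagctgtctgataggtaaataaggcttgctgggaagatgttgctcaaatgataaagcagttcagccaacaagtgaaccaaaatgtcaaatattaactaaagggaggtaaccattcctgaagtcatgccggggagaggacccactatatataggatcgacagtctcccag
Itih4: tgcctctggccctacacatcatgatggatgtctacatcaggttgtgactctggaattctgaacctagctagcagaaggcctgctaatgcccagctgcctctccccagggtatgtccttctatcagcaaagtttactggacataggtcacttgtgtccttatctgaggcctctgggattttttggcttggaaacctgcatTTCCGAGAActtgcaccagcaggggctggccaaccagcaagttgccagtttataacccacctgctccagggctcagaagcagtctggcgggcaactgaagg
Such letters were found in 6 of the 17 windows (Agt, Apcs, Fga, Fgb, Itih4 and Steap4) and in 8.47% of the 27025 windows of all genes. Itih4, an inter-alpha-trypsin inhibitor heavy chain, was at 2108, 24885 and 6888 CPM in wild-type and at 1657, 2319 and 2494 CPM in knockout mice (log2 fold change -2.39 ± 0.65 SE, adjusted p = 0.144). A match is a description of the sequence and no evidence that a factor was bound.

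Complement genes were mostly lower in knockout liver. Of 14 tested, 12 had a negative log2 fold change, 1 was called lower and the median was -0.86. Of the 24 genes listed 10 had no row and were not analysed here. In 8 of the 14 the knockout values lay wholly below wild type, against 7.75% of all autosomal genes, and in 1 wholly above, against 9.75%. An unadjusted p under 0.05 was reached by 1 higher and 11 lower genes, against 8.14% and 7.66%. DESeq2 called 1 higher and 8 lower, against 1.61% and 2.18%. The called gene was C8a, a chain of the membrane attack complex, at 588, 1561 and 1578 CPM in wild-type and at 338, 327 and 340 CPM in knockout mice (log2 fold change -1.89 ± 0.34 SE, adjusted p = 0.043). It kept the call in 2 of the 12 fits that left out 1 library and lost it in limma-voom and on the 6 DSS libraries alone. Without wild-type mouse 1, 2 or 3, edgeR called 9, 0 and 0 of the 14 lower. C6, which joins the same complex and is on the list of genes higher in male liver, was at 112, 232 and 250 CPM against 42.6, 38.8 and 38.9 CPM (log2 fold change -2.30 ± 0.48 SE, adjusted p = 0.0791). With sex as a covariate the log2 fold change was -1.0 for C8a and -0.53 for C6. For C8b, another chain of that complex that is named outside the rule, it went from -0.96 to 0.01 (adjusted p = 0.133 without the covariate). Hc, which encodes C5, was at -0.89 with and without that covariate, and its values of 1197, 2190 and 2435 CPM did not overlap with 900, 1082 and 1152 CPM (adjusted p = 0.144).

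In the coagulation list, 13 of 15 genes had a negative log2 fold change, and the median was -0.40, or -0.18 without the second wild-type mouse. None was called by edgeR with all mice, and 1, 0 and 0 were called lower without wild-type mouse 1, 2 or 3. In the fit of all mice 1 higher and 7 lower genes had an unadjusted p under 0.05, and DESeq2 called 1. The gene called by DESeq2 was Serpinf2, the inhibitor of plasmin, at 1331, 1399 and 1405 CPM in wild-type and at 749, 888 and 927 CPM in knockout mice (log2 fold change -0.69 ± 0.17 SE, adjusted p = 0.113 in edgeR). The kininogen genes Kng1 and Kng2 had log2 fold changes of -0.63 and -0.68, and Plg, the plasmin precursor, -0.55.

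Of 23 plasma carriers and secreted hormones 8 were higher and 15 lower, with a median of -0.15 that lay between -0.18 and -0.06 with 1 DSS library left out. With all mice edgeR called 0, 4 higher and 3 lower had an unadjusted p under 0.05 and DESeq2 called 1 higher and 2 lower, and without wild-type mouse 1 edgeR called 1 higher and 1 lower, but 0 without mouse 2 or 3. Alb, which encodes albumin, was at 110567, 65408 and 62894 CPM in wild-type and at 150254, 108460 and 113161 CPM in knockout mice, and the groups overlapped. Igfbp1, an inhibitor of IGF signalling, was at 398, 726 and 212 CPM against 112, 170 and 117 CPM (log2 fold change -1.75 ± 0.48 SE, adjusted p = 0.157). Igfals, which keeps IGF1 in the blood, had values of 71.5, 63.7 and 96.7 CPM against 118, 138 and 168 CPM (log2 fold change 0.87 ± 0.24 SE, adjusted p = 0.144). The iron carrier Trf spanned 17744 to 60711 CPM in wild-type and 17884 to 23669 CPM in knockout mice. Among 16 lipoprotein genes the median was -0.09 (from -0.17 to -0.06 with 1 DSS library left out) and 0 were called, 2 had an unadjusted p under 0.05 and DESeq2 called 1. Apob ran from 20896 to 23312 CPM and from 16413 to 19131 CPM (log2 fold change -0.30 ± 0.22 SE, adjusted p = 0.57).

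Genes of the endoplasmic reticulum and of protein export, the machinery that handles secreted proteins, were lower in 26 of 28 cases, with a median of -0.50. Without wild-type mouse 1, 2 or 3 the median was -0.68, -0.23 and -0.55 and the number called lower 5, 0 and 0, and the list level of mouse 1, at -0.11, lay within the knockout range of -0.51 to -0.01. With all mice none was called by edgeR. An unadjusted p under 0.05 was reached by 13, all lower, against 7.66% of all autosomal genes. DESeq2 called 4 lower, against 2.18%. In 9 the knockout values lay wholly below wild type, against 7.75% of all autosomal genes. Of these 9, 5 were among the 7 genes of the translocon and of vesicle export, whose median was -0.58. Sec61a1, the pore of the translocon, was at 315, 525 and 388 CPM in wild-type and at 175, 233 and 241 CPM in knockout mice (log2 fold change -0.92 ± 0.19 SE, adjusted p = 0.0681). Sec24d, a cargo adaptor of COPII vesicles, was at 149, 174 and 173 CPM against 79.8, 117 and 101 CPM (log2 fold change -0.74 ± 0.16 SE, adjusted p = 0.0814). The chaperone Hspa5 (BiP) overlapped between the groups, with a log2 fold change of -0.11 ± 0.25 (SE).

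**Figure D3:**
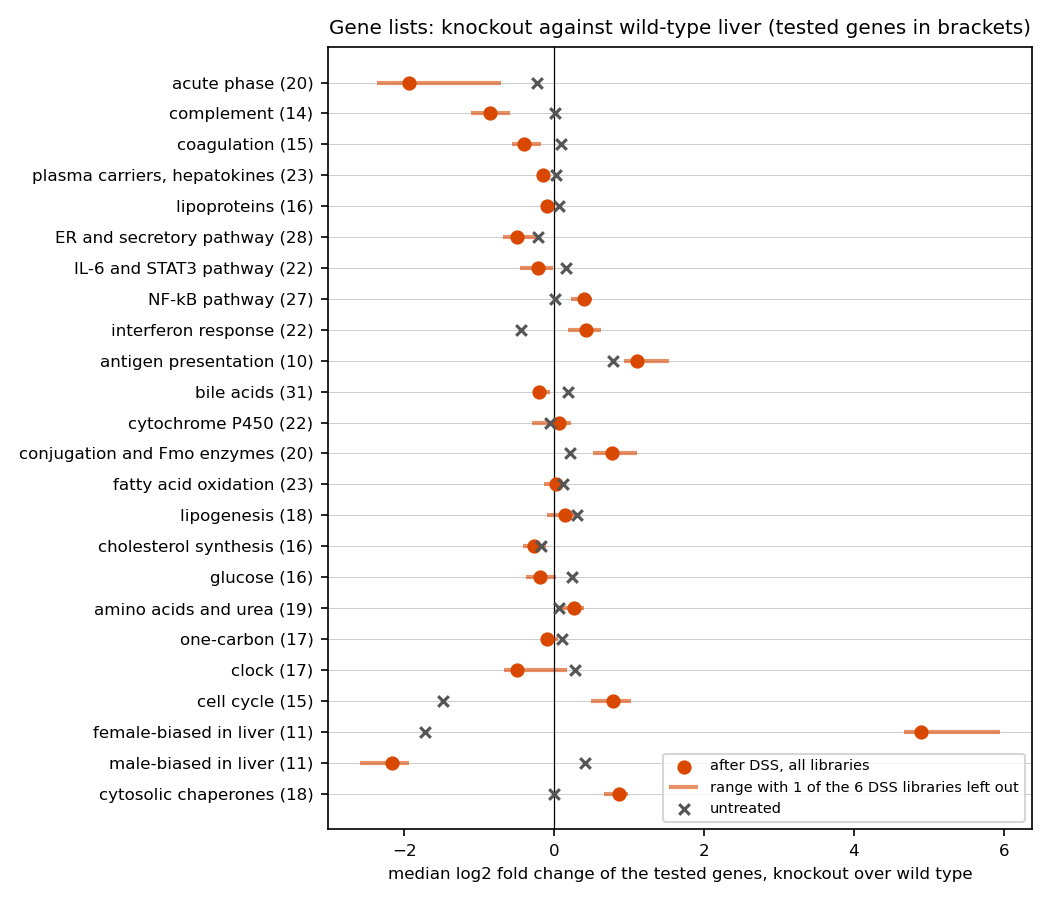
Median log2 fold change, knockout over wild type, of the tested genes of each list, with filled circles for mice given DSS, bars for the lowest to the highest median when 1 of the 6 DSS libraries is left out, and crosses for untreated mice. The acute-phase list lies at -1.94 after DSS, with a bar from -2.37 to -0.71, and at -0.23 without DSS, and the female-biased list at 4.90 and -1.72.

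Among 22 genes of the IL-6 and STAT3 pathway, 6 were higher and 16 lower, with a median of -0.21. The median was -0.02 without the second wild-type mouse and -0.45 without the third knockout mouse. None was called by edgeR with all mice, 1 higher and 4 lower without the first wild-type mouse and 0 without mouse 2 or 3. In the fit of all mice 4 had an unadjusted p under 0.05 in each direction, and DESeq2 called 3, all lower. Il1r1, the signalling receptor of IL-1, was at 37.2, 401 and 116 CPM in wild-type and at 25.3, 27.6 and 33.9 CPM in knockout mice (log2 fold change -2.67 ± 0.67 SE, adjusted p = 0.13). The shared receptor chain Il6st was close to equal (log2 fold change -0.13 ± 0.17 SE). Lifr, the receptor of leukemia inhibitory factor, was at 513, 286 and 636 CPM against 602, 667 and 927 CPM and did not pass the test (adjusted p = 0.338).

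In the NF-κB list 20 of 27 genes were higher and the median was 0.40, or 0.22 without the second knockout mouse. DESeq2 called 1 higher and 1 lower, and edgeR called 1, 1 and 0 higher without wild-type mouse 1, 2 or 3. Cxcl9, a chemokine that draws T cells and is induced by interferon-γ, was its 1 called member, at 26.9, 5.54 and 13.2 CPM in wild-type and at 103, 132 and 63.7 CPM in knockout mice (log2 fold change 2.71 ± 0.47 SE, adjusted p = 0.0491). Ccl24, a chemokine for eosinophils, was called as well, at 1.15, 1.10 and 0.606 CPM against 8.59, 3.93 and 3.28 CPM (log2 fold change 2.47 ± 0.46 SE, adjusted p = 0.0486). With 1 library left out Cxcl9 kept its call in 2 and Ccl24 in 1 of 12 fits, and both lost it in limma-voom and on the 6 DSS libraries alone. The subunit Rel was at 19.9, 18.1 and 15.1 CPM against 21.3, 24.4 and 24.4 CPM (log2 fold change 0.40 ± 0.13 SE, adjusted p = 0.213).

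All 10 antigen presentation genes tested were higher in knockout liver, and their median was 1.11. Of the 17 genes listed 7 had no row and were not analysed here. In 6 of the 10 the groups did not overlap, against 9.75% of all autosomal genes on the higher side. None was called by edgeR, 7 had an unadjusted p under 0.05, against 8.14%, and DESeq2 called 1, against 1.61%. The immunoproteasome subunit Psmb8 was at 97.7, 44.4 and 49.1 CPM in wild-type and at 116, 169 and 107 CPM in knockout mice (log2 fold change 1.04 ± 0.29 SE, adjusted p = 0.153). H2-DMa, which loads peptides onto class II molecules, was at 9.89, 5.49 and 4.88 CPM against 17.8, 18.2 and 10.1 CPM (log2 fold change 1.18 ± 0.43 SE, adjusted p = 0.25). B2m, the light chain of class I molecules, differed little in size, with a log2 fold change of 0.24 ± 0.18 (SE). All 10 were also higher in untreated knockout liver, where the median was 0.78. Without wild-type mouse 1, 2 or 3 the number called higher was 4, 0 and 0.

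Interferon-response genes had a median of 0.42, or 0.18 without the second knockout mouse, with 19 of 22 higher and 0 called by edgeR or DESeq2. Of the 33 genes listed 11 had no row and were not analysed here. In 5 of the 22 the knockout values lay wholly above wild type, against 9.75% of all autosomal genes. An unadjusted p under 0.05 was reached by 4 genes, all of them higher, against 8.14%. Without wild-type mouse 1, 2 or 3 edgeR called 2, 0 and 0. The antiviral gene Ifit3 was at 135, 28 and 92 CPM in wild-type and at 227, 469 and 136 CPM in knockout mice (log2 fold change 1.71 ± 0.56 SE, adjusted p = 0.227). The immunity-related GTPase Irgm1 was at 402, 140 and 295 CPM against 538, 474 and 508 CPM (log2 fold change 0.86 ± 0.30 SE, adjusted p = 0.231). The second wild-type mouse, highest in acute-phase genes, was the lowest of the 6 for both.

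Markers of other cell types were compared as well. All 11 lymphocyte markers tested were higher in knockout liver, with a median of 1.31, and they summed to 10.9, 9.93 and 3.95 CPM in wild-type and to 28.6, 13.2 and 12.5 CPM in knockout mice. None was at 0 in all 6 libraries. The 10 Kupffer cell and macrophage markers tested were all higher, with a median of 0.41 and sums of 766, 1155 and 549 CPM against 1353, 1192 and 865 CPM. Lyz2, the lysozyme of macrophages and neutrophils, was at 96.3, 81.4 and 47.6 CPM against 208, 114 and 116 CPM (log2 fold change 0.96 ± 0.29 SE, adjusted p = 0.186). The 6 monocyte markers summed to 38.7, 65.8 and 22.2 CPM against 92.9, 51.0 and 33.4 CPM. Of 8 neutrophil markers tested 7 were lower, with a median of -1.03 that turned to 1.77 without the second wild-type mouse, and by their sum the other two wild-type mice lay below all 3 knockout mice, while 6 of 6 endothelial and 8 of 9 stellate cell and fibroblast markers were higher, with medians of 0.46 and 0.39. With 1 DSS library left out the median ran from 0.63 to 1.42 for lymphocyte, from 0.21 to 0.69 for Kupffer cell, from 0.20 to 0.76 for endothelial and from 0.23 to 0.46 for stellate cell markers, and that of monocyte markers from -0.04 to 0.89. The second wild-type mouse had the highest list level of the wild-type mice for Kupffer cell and monocyte markers (0.27 and 0.36) and the lowest for the interferon and antigen presentation lists (-1.07 and -0.95). Of the 27 lymphocyte, Kupffer cell and monocyte markers tested 0 were called by edgeR and 1 by DESeq2. An unadjusted p under 0.05 was reached by 6 of them, against 8.14% higher and 7.66% lower among all autosomal genes. The part of these markers in the antigen presentation and interferon values was not tested.

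Of 31 bile acid genes tested, 9 were higher and 22 lower, the median was -0.20 (from -0.26 to -0.06 with 1 DSS library left out) and 0 were called by edgeR, with 4 higher and 7 lower at an unadjusted p under 0.05 and 3 higher and 1 lower by DESeq2. With 1 mouse left out edgeR called 1 higher without wild-type mouse 1, without mouse 2 it called 1 higher and 1 lower, and without mouse 3 it called 0. Cyp7a1, the rate-limiting enzyme of the classical pathway, was at 28.5, 4.78 and 81.5 CPM in wild-type and at 25.9, 74.9 and 8.08 CPM in knockout mice, so that the groups covered nearly the same range (log2 fold change -0.08 ± 1.12 SE, adjusted p = 0.987). Cyp8b1, the sterol 12α-hydroxylase that sets the share of cholic acid, was at 237, 80.9 and 174 CPM against 115, 137 and 205 CPM (log2 fold change -0.11 ± 0.76 SE). Cyp27a1, which opens the alternative pathway, was at 290, 153 and 436 CPM against 175, 253 and 280 CPM (log2 fold change -0.31 ± 0.31 SE).

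Cyp7b1, the oxysterol 7α-hydroxylase of the alternative pathway and a gene known to be higher in male liver, was at 110, 129 and 311 CPM in wild-type and at 62.0, 58.3 and 123 CPM in knockout mice (log2 fold change -1.18 ± 0.47 SE, adjusted p = 0.302). With sex as a covariate its log2 fold change was -0.17, and between untreated genotypes it was 1.31. For 3 higher and 3 lower bile acid genes of the 31 the groups did not overlap, near the background of 9.75% and 7.75% of autosomal genes, so the genes are named as a description only. The higher ones were the oxysterol hydroxylase Cyp39a1 (log2 fold change 1.21, adjusted p = 0.182), the uptake carrier Slco1a4 (1.44, adjusted p = 0.215) and the basolateral exporter Abcc4, which was at 3.2, 4.51 and 2.2 CPM against 6.25, 6.92 and 7.78 CPM (1.08, adjusted p = 0.0936). The lower ones were the peroxisomal thiolase Scp2, at 2347, 1491 and 3119 CPM against 1379, 976 and 1117 CPM (log2 fold change -1.0, adjusted p = 0.182), and the nuclear receptors Nr5a2 (-0.48, adjusted p = 0.203) and Nr1h4, the bile acid receptor FXR (-0.47, adjusted p = 0.287).

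**Figure D4:**
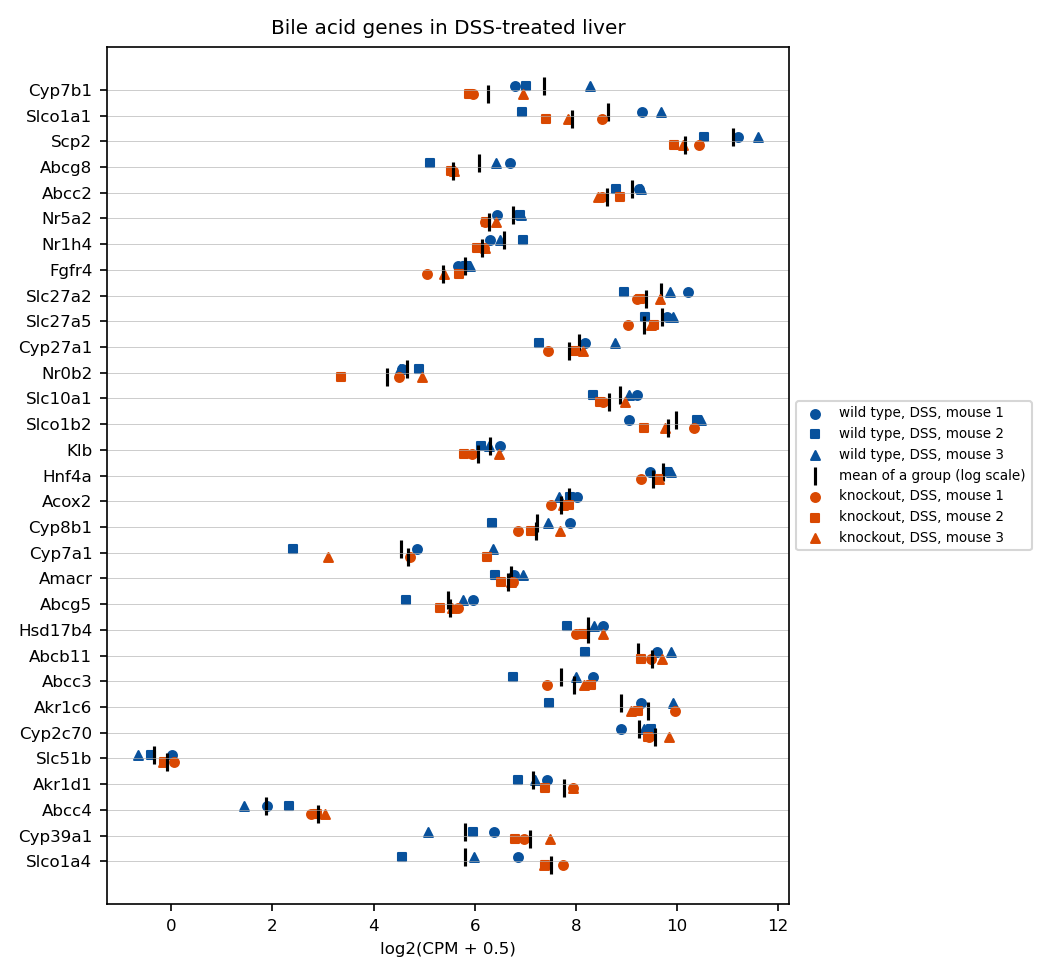
Levels of the 31 tested bile acid genes in the 6 DSS libraries, as log2(CPM + 0.5), sorted by log2 fold change, with wild-type mice in blue, knockout mice in orange and the mean of each group as a bar. The groups are separate for 6 of the 31 genes, 3 in each direction, against 9.75% higher and 7.75% lower among all autosomal genes, and Cyp7a1 spans nearly the same range in both.

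Conjugating and oxygenating enzymes that clear drugs and hormones were higher in knockout liver for all 20 genes tested, with a median of 0.77. Of the 41 genes listed 21 had no row and were not analysed here. In 11 of the 20 the groups did not overlap, against 9.75% of all autosomal genes on the higher side. An unadjusted p under 0.05 was reached by 10, against 8.14%. DESeq2 called 5, against 1.61%, and edgeR called 1. The called gene was Sult1a1, a phenol sulfotransferase, at 340, 209 and 261 CPM in wild-type and at 585, 593 and 624 CPM in knockout mice (log2 fold change 1.15 ± 0.20 SE, adjusted p = 0.0392). It kept the call in 3 of the 12 fits that left out 1 library and lost it on the 6 DSS libraries alone, and 3, 0 and 0 of the 20 were called without wild-type mouse 1, 2 or 3. Fmo1, a flavin monooxygenase, was at 144, 82.9 and 106 CPM against 237, 213 and 335 CPM (log2 fold change 1.23 ± 0.25 SE, adjusted p = 0.06). Sult3a1, on the list of genes higher in female liver, was at 14.4, 0.143 and 16.2 CPM against 3064, 1508 and 3072 CPM (log2 fold change 7.95 ± 3.28 SE, adjusted p = 0.325). With sex as a covariate the log2 fold changes were 0.74 for Sult1a1, 0.66 for Fmo1 and -1.30 for Sult3a1.

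The cytochrome P450 genes had a median of 0.07, or -0.30 without the second wild-type mouse, with 12 of 22 higher and 0 called by edgeR. Of the 50 genes listed 28 had no row and were not analysed here. In the edgeR fit without wild-type mouse 1 the test called 1 higher and 2 lower, without mouse 2 it called 1 lower, and without mouse 3 it called 0. At an unadjusted p under 0.05 there were 7, and DESeq2 called 3 higher and 1 lower. Cyp2a4, a female-biased steroid hydroxylase whose reads can be shared with close relatives in its family, was at 74.7, 6.45 and 22.8 CPM in wild-type and at 940, 818 and 1349 CPM in knockout mice (log2 fold change 4.90 ± 1.03 SE, adjusted p = 0.0945). Cyp2u1, on the male-biased list, was at 103, 40.6 and 103 CPM against 17.6, 17.8 and 20.6 CPM (log2 fold change -2.14 ± 0.44 SE, adjusted p = 0.0744). Cyp2c38 was at 46.6, 26.5 and 51.8 CPM against 107, 82.9 and 103 CPM (log2 fold change 1.23 ± 0.26 SE, adjusted p = 0.071). Cyp2e1, which oxidizes ethanol, overlapped between the groups.

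With all mice, the lists of genes known to be higher in female or in male liver had the largest medians in size of all lists. Without wild-type mouse 3 the acute-phase median (-2.05) was larger in size than the male-biased one (-1.94). All 11 female-biased genes tested, of 25 listed, were higher in knockout liver, with a median of 4.90. In 9 of them the groups did not overlap, against 9.75% of all autosomal genes. Of 11 male-biased genes tested, of 26 listed, 10 were lower, with a median of -2.16. In 6 of the 11 the knockout values lay wholly below wild type, against 7.75% of all autosomal genes. Of these 22 genes 1, Slc22a26, was called by edgeR, while 16 had an unadjusted p under 0.05 and DESeq2 called 13. Without wild-type mouse 1, 2 or 3 the number of male-biased genes called lower was 3, 2 and 0, and that of female-biased genes called higher 1, 0 and 0. Elovl3, a fatty acid elongase, was at 52.2, 0.780 and 81.5 CPM in wild-type and at 0.271, 0.120 and 0.283 CPM in knockout mice. Susd4, a complement inhibitor, was at 32.1, 45.1 and 70.5 CPM against 4.35, 6.25 and 10.7 CPM (log2 fold change -2.80 ± 0.50 SE, adjusted p = 0.0543). The third untreated wild-type library lay above both other untreated wild-type libraries for 10 of the 11 female-biased genes and below both for 9 of the 11 male-biased genes.

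**Figure D5:**
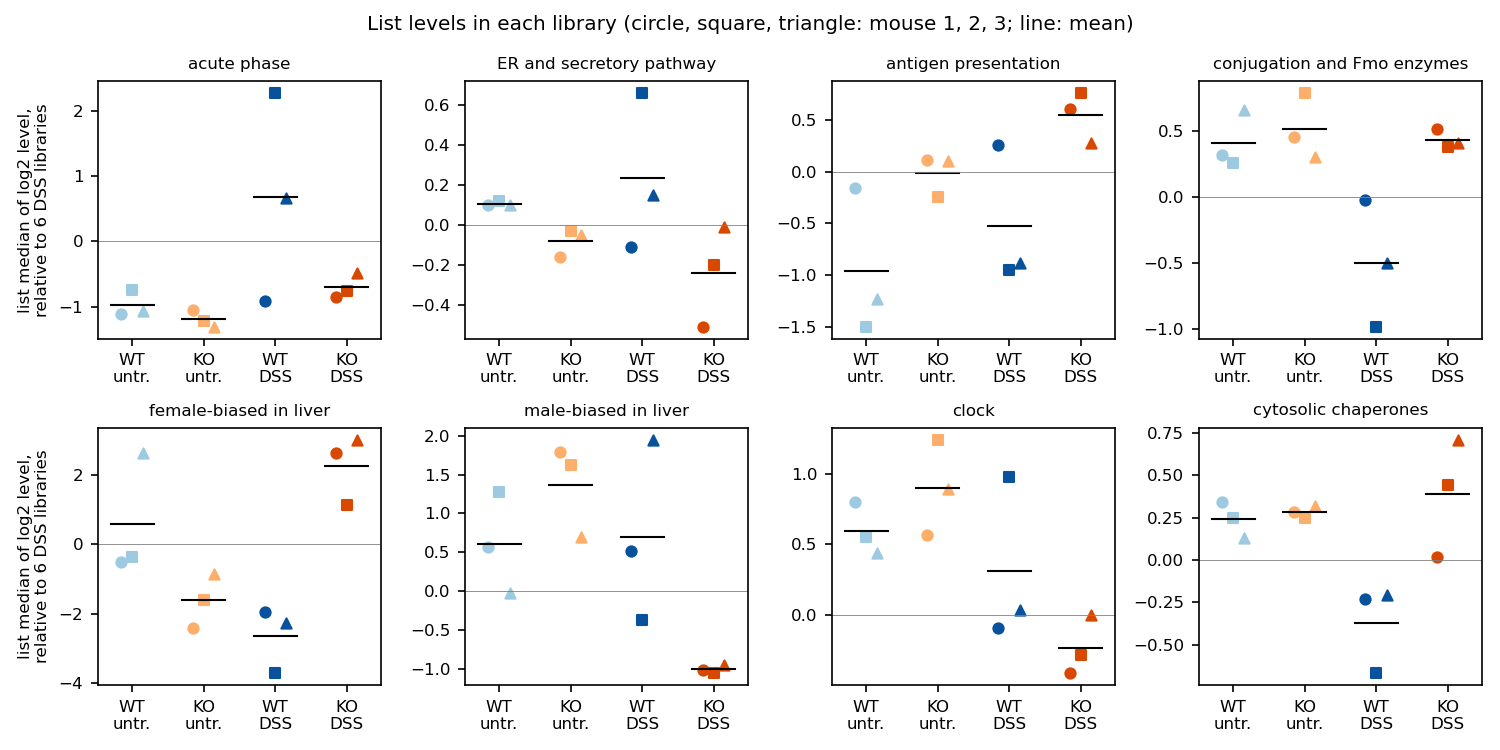
Level of 8 gene lists in each of the 12 libraries, as the list median of log2(CPM + 0.5) relative to the mean of the 6 DSS libraries, with the mean of each group as a line. The acute-phase panel shows the first wild-type mouse given DSS at -0.92, near the knockout mice, and the second at 2.27, and the female-biased panel shows the third untreated wild-type mouse at 2.62, beside the knockout mice given DSS.

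The lists of energy and lipid metabolism had medians near that of all genes. Fatty acid oxidation was at 0.02, lipogenesis at 0.15, cholesterol synthesis at -0.27, glucose metabolism at -0.19, amino acid and urea metabolism at 0.26 and one-carbon metabolism at -0.09. With 1 DSS library left out the signs of the medians for fatty acid oxidation (-0.13 to 0.10), lipogenesis (-0.09 to 0.34), glucose (-0.38 to 0.02) and one-carbon metabolism (-0.12 to 0.05) did not hold, and those for cholesterol synthesis and amino acids ran from -0.42 to -0.11 and from 0.06 to 0.40. In the edgeR fit without wild-type mouse 1 the test called 1 fatty acid oxidation and 1 glucose gene lower, without mouse 2 it called 1 lipogenesis gene lower, and without mouse 3 it called 0. With all mice none of their 109 genes was called by edgeR, 14 had an unadjusted p under 0.05 and DESeq2 called 6. These counts were near the shares over all autosomal genes. Those shares were 8.14% higher and 7.66% lower for the unadjusted p, and 1.61% and 2.18% for DESeq2. Acaa1a, a peroxisomal thiolase, came closest with 95.5, 103 and 116 CPM in wild-type and 67.6, 72.2 and 66.8 CPM in knockout mice (log2 fold change -0.60 ± 0.12 SE, adjusted p = 0.0599). Pcx, the pyruvate carboxylase that starts gluconeogenesis, was at 483, 958 and 697 CPM against 318, 368 and 498 CPM (log2 fold change -0.85 ± 0.24 SE, adjusted p = 0.142). The urea cycle genes Ass1 and Asl had log2 fold changes of 0.50 ± 0.29 (SE) and 0.71 ± 0.28 (SE) with overlapping groups.

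Chaperones, most of them of the cytosol, recurred among the genes called higher. This group was noticed in the list of calls, so its counts are a description. Hsp90aa1, the stress-inducible HSP90, was at 175, 154 and 166 CPM in wild-type and at 452, 419 and 596 CPM in knockout mice (log2 fold change 1.57 ± 0.17 SE, adjusted p = 0.00105). Hspa4l, an HSP110-type exchange factor, and the HSP90 partners Chordc1 and Cacybp were called with log2 fold changes of 1.20, 0.91 and 0.88, as was Serpinh1, the collagen chaperone of the endoplasmic reticulum, with 0.94. Of 18 chaperone genes tested, 17 were higher, 5 were called by edgeR and the median was 0.86. In 11 the knockout values lay wholly above wild type, against 9.75% of all autosomal genes, and DESeq2 called 11, against 1.61%. Without wild-type mouse 1, 2 or 3 the number called was 6, 1 and 1, and without knockout mouse 1, 2 or 3 it was 3, 4 and 1, where 0.0494%, 0.177% and 0.0493% of autosomal genes were called higher. Of the 12 fits that left out 1 library, Hspa4l kept its call in 8, Cacybp in 3, and Chordc1 and Serpinh1 in 2 each. Each of these genes lost it on the 6 DSS libraries alone, where Hsp90aa1 kept it, and Serpinh1 also lost it in limma-voom. The median for the untreated genotypes rounded to 0. In the wild-type mice given DSS the list stood below all 6 untreated libraries, at -0.23, -0.67 and -0.21 against 0.13 to 0.34 on the log2 scale. The knockout mice given DSS stood at 0.02, 0.44 and 0.71, so that the first of them lay below the untreated libraries as well.

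The called pseudogenes Gm12346 (chr11:77106946-77109400, mm9) and Gm5844 (chr3:17908806-17910996, mm9) followed Hsp90aa1 (chr12:111928815-111940938, mm9). Gm12346 was at 22.2, 20.2 and 21.0 CPM in wild-type and at 60.8, 57.9 and 81.9 CPM in knockout mice. Of the 31-base words of the pseudogenes, 76.9% and 69.4% also occur in Hsp90aa1 transcripts, so their counts can hold reads of that gene and the 3 calls are not separate. Hsp90aa1, both pseudogenes, Dntt, Enpp3 and Nr1d1 were the 6 genes called in each of the 12 fits that left out 1 library.

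The promoter window of Chordc1 is shown because, of the 5 called chaperone genes, it holds the core of a heat shock element. The window lies at chr9:18292017-18292316 (+ strand) in GRCm38.p6, and capitals mark 2 matches to GAANNTTC, which reads the same on both strands.
Chordc1: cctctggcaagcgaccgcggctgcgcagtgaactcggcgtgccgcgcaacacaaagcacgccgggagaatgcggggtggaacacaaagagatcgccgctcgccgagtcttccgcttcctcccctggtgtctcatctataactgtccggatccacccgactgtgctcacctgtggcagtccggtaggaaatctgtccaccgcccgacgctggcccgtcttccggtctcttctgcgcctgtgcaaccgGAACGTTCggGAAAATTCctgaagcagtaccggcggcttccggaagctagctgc
These letters were found in 6 of the 15 chaperone windows (Bag3, Chordc1, Fkbp4, Hspb1, Hspe1 and Hsph1) and in 7.95% of all windows. In the acute-phase windows they were found in 0 of 17, and among the genes called higher in 2 of 16 windows (Chordc1 and Fam126a). The chaperones were listed after the calls were seen, and a match is no evidence that a factor was bound. Chordc1 itself was at 42.5, 30.5 and 34.1 CPM in wild-type and at 59.1, 62.1 and 80.1 CPM in knockout mice.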

How the data were processed

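Liver RNA, freed of rRNA, was sequenced from both fragment ends. The authors used fastp for trimming, aligned the reads with HISAT2 (mm9) and deposited estimated counts per gene from StringTie, as whole numbers without normalization; the annotation version is not given in the sources used here. Of 51609 rows, 28677 had a symbol in GENCODE vM1; 0 columns of values were left unmapped. Groups came from the labels.

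All 12 libraries were fitted in 1 model of 4 groups with edgeR 4.0.16 in R 4.3.3 (filterByExpr, TMM factors 0.758 to 1.13, robust quasi-likelihood test, 8 residual degrees of freedom, biological coefficient of variation 0.317), with Benjamini-Hochberg adjustment over 17652 genes. Calls were counted on autosomes. The authors' tool DESeq2 (1.42.0), limma 3.58.1, other filters and scalings, a sex covariate, a replicate block and leave-one-out fits were alternatives. On simulated data of 17153 genes for this comparison, 50%, 90%, 40% and 94% of genes changed by folds of 2, 4, 0.5 and 0.25 were called and 4.86% of calls were false. No libraries were duplicates (at most 1.90% of counts identical). With 3 mice against 3, an exact permutation test cannot give a two-sided p under 0.1.

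The members and gene lists were chosen with earlier results of these data known, and the list of chaperones, most of them cytosolic, after the calls were seen. Named genes were the 12 largest and 12 smallest log2 fold changes among called protein-coding autosomal genes; in each list the called members, the 2 smallest p-values and the 2 highest levels; Rela, Stat3, Cyp7a1, Cyp7b1, Cyp8b1, Cyp27a1 and sex-linked transcripts; and acute-phase and bile acid genes without overlap. Other names are said to be exceptions or belong to the chaperone list. Some genes that the rule names are not reported here.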

Additional observations from a re-analysis of the deposited data

Results flagged for a closer look

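For 19 named genes the genotype difference after DSS differed from that between untreated mice by a test of the difference itself (edgeR interaction term, adjusted p under 0.05). The values below are log2 differences, the knockout over wild-type fold change after DSS minus the same without DSS. The untreated wild-type group holds the library with high Xist, so these values compare groups that also differ in sex-linked transcripts. With sex as a covariate 0 of the 19 kept an adjusted p under 0.05. All 19 values kept their sign in that fit and 16 stayed within 1.5 times their size (Dntt 4.56, Enpp3 -2.26, Hsp90aa1 1.70, Sparc 1.39, Amn1 -3.76 and Chrm3 -8.25), while Nt5e went to 1.17, Aldoc to -1.24 and Cdk1 to 1.82. The SE of Dntt and of Enpp3 rose to 0.70 and 0.50. Without that library 12 of the 19 kept it. The 7 that lost it had values of -4.68 (Nox4), -3.80 (Susd4), -3.39 (Adam11), -0.87 (Acaa1a), 1.73 (Pla2g16), 4.37 (Cyp2g1) and 11.76 (Hao2) without it.

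The genotype difference was more negative after DSS for Chrm3 (-6.21), Nox4 (-4.76), Susd4 (-4.07), Amn1 (-3.69), Adam11 (-3.51), Enpp3 (-2.23), Aldoc (-1.93) and Acaa1a (-0.90). Enpp3 was the firmest of these, with an SE of 0.27 and an adjusted p of 0.00475.

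It was more positive after DSS for Hao2 (13.27), Slc22a26 (10.64), Dntt (4.55), Cyp2g1 (4.53), Pygo1 (3.97), Nt5e (3.12), Slc16a5 (2.98), Cdk1 (2.79), Pla2g16 (1.71), Hsp90aa1 (1.64) and Sparc (1.40). For Cdk1 and Sparc the untreated difference was the larger part, with log2 fold changes of 0.94 and 0.39 after DSS and -1.85 and -1.01 without DSS. For the other genes of this group the difference after DSS was the larger in size. Dntt had an SE of 0.40 and an adjusted p of 0.000817, and Hsp90aa1 an SE of 0.23 and an adjusted p of 0.01. Hao2, a peroxisomal hydroxyacid oxidase on the female-biased list, was at 0.824, 0 and 0.606 CPM in wild-type and at 84.8, 37.9 and 71.4 CPM in knockout mice given DSS.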

How the results depend on the processing

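After DSS, edgeR called 29 autosomal genes higher and 18 lower. DESeq2 called 217 and 295, DESeq2 on the 6 DSS libraries alone (added after seeing the data) 148 and 169, edgeR on those 6 libraries 19 and 10, limma-voom 20 and 9, and the fit with sex as a covariate 0 and 1. Leaving out 1 library gave 5 to 106 genes higher and 2 to 254 lower. Without wild-type mouse 1, 2 or 3 given DSS the counts were 106 and 254, 15 and 16, and 5 and 4; without the knockout mice given DSS, 7 and 2, 25 and 9, and 7 and 5; without the untreated wild-type mice, 21 and 10, 14 and 5, and 40 and 26; without the untreated knockout mice, 14 and 6, 17 and 8, and 13 and 9. Why the counts moved was not tested.

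Without DSS, 6 genes were called higher and 4 lower between genotypes: 115 and 166 by DESeq2, 33 and 49 by limma-voom, 0 and 2 with sex as a covariate, and 0 to 11 and 2 to 20 with 1 library left out. The difference between the genotype differences was called for 36 and 23 genes: 349 and 255 by DESeq2, 0 and 0 with sex as a covariate, and 8 to 95 and 7 to 97 with 1 library left out.

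The acute-phase median of -1.94 ran from -2.37 to -0.71 with 1 library left out and was -0.95 in limma-voom. All 25 called named genes kept their sign in all 21 alternatives. The alternatives gave 3604 estimates for the 172 named genes, called or not, and 85 estimates that were not called changed sign.

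Same-numbered mice did not deviate together (correlations from -0.0886 to 0.168). With the replicate number as a block, 33 genes were called higher and 22 lower after DSS, 9 and 18 without DSS, and 77 and 30 for the difference between them.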
